A study of Homo sapiens with 10 samples.

Results

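The SLC25 genes encode the mitochondrial carriers, and their mRNAs were followed here in PC3, an established human line of prostate cancer that was grown from a bone metastasis, and in the extracellular vesicles (EVs) it released. Members were all protein-coding genes of GENCODE release 29 whose symbol is SLC25A and a number, which gave 48 genes among 94946 entries of the count table. The rule used no measured value. Total RNA was sequenced from vesicles pelleted in centrifuge runs that the labels call 2.8K, 10K and 100K without a unit, with 3 libraries each, and from 1 library of whole PC3 cells. The pellets are named EV 2.8K, EV 10K, and, for the fastest run, EV 100K. All 4 groups share the line and its medium, DMEM with fetal bovine serum, and the labels name no treatment or genetic change. No label states that the numbered sets were separate cultures, so p-values cover the spread between these samples alone, which may be technical.

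Mitochondrial carriers are nuclear-encoded proteins, translated in the cytosol, that sit mostly in the inner mitochondrial membrane and exchange metabolites between the matrix and the cytosol. The adenine nucleotide translocases (SLC25A4, SLC25A5, SLC25A6 and the testis form SLC25A31) swap matrix ATP for cytosolic ADP, and the phosphate carrier SLC25A3 brings in the phosphate that ATP synthase uses. Other members carry citrate, amino acids, coenzymes, nucleotides, iron or glutathione. The proteins are built of repeats that typically share a signature, Pro-any-Asp/Glu-any-any-Lys/Arg.

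The coding stretch around the first signature match is shown for the phosphate carrier and the translocases, because their mRNAs behaved differently and reads must be told apart between them. Capitals mark the signature codons, and the sequences were read 5′ to 3′ from the GENCODE release 29 transcripts. SLC25A3 lies at chr12:98593591-98606379 on the plus strand, SLC25A4 at chr4:185143241-185150382 on the plus strand and SLC25A5 at chrX:119468400-119471319 on the plus strand (GRCh38). The first signature codon is codon 85 in SLC25A3 and codon 28 in the translocases.
SLC25A3: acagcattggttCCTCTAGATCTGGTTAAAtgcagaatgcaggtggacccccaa
SLC25A4: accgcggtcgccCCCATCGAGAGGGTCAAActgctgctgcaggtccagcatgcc
SLC25A5: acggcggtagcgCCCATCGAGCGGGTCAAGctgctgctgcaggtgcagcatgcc
SLC25A6: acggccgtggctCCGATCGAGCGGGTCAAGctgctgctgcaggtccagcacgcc
Over these 54 bases the translocases differed from each other at 6 to 8 positions, and SLC25A3 differed from them at 25 to 28. Over the whole coding sequence, identity was 77.4% between SLC25A4 and SLC25A5, 78.3% between SLC25A4 and SLC25A6 and 79.2% between SLC25A5 and SLC25A6. Identity of SLC25A3 with these translocases was 48.3 to 51.6%. Of the 48 members, 27 held exactly 3 signature matches and 3 held 4. A further 8 held 2, 6 held 1, and in 4 members no match was found.

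The libraries held 10288246 to 14977955 counts in the EV 2.8K pellet, 7933251 to 10864958 in the EV 10K pellet, 5424964 to 8083438 in the EV 100K pellet and 28735081 in the cells. RNA from the mitochondrial genome made up 4.81 to 12.9% of counts in EV 2.8K, 0.826 to 1.04% in the EV 10K pellet, 0.00544 to 0.00802% in the EV 100K pellet and 2.88% in the cells. EV 2.8K library 1 held the 12.9%, and 7 tested carriers had no count in it, against 0 to 2 in every other library. The keratins KRT8, KRT18 and KRT19 were present in every library, and the luminal gene KLK3 had no count. Levels are given as CPM (counts per 1000000). The 5 epithelial markers summed to 1734 to 2109 CPM in EV 2.8K and 1508 to 1937 CPM in EV 10K. Their sum was 796 to 893 CPM in EV 100K and 1364 CPM in the cells. Of the 4 tested, 2 were lower in EV 100K than in the slowest pellet, against 13.8% of all genes. The part of these shifts in the carrier results was not tested. The 6 blood and serum markers summed to 0 to 4.31 CPM in EV 2.8K, 0 to 1.68 CPM in the EV 10K pellet, and 0 in both EV 100K and the cells. The 6 leukocyte and platelet markers summed to 0, 0 to 2.23, 0 and 1.06 CPM in the same order. The 5 fibroblast markers summed to 3.17 to 27.5, 1.62 to 3.91, 1.28 to 4.08 and 9.51 CPM, most of it COL1A1. In all 10 libraries HBA1, HBA2, PTPRC, DCN and LUM were at 0.

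Carrier mRNAs were found in all pellets, and 2 of them moved in opposite directions by large amounts. The phosphate carrier mRNA SLC25A3 was about as abundant in EV 2.8K as in cells and far more abundant in EV 100K, while SLC25A5, the most abundant translocase mRNA measured, was lower in EV 100K. In pellets of this kind, fewer vesicles with an mRNA and fewer copies per vesicle cannot be told apart. Of the 48 members, 39 had enough counts to be tested between the pellets. Between EV 100K and EV 2.8K, 11 of these 39 differed (28.2%), 5 higher and 6 lower, by edgeR's quasi-likelihood test with Benjamini-Hochberg adjustment over all 15525 genes tested. Over all genes tested the share that differed was 25.8%, with 12% higher and 13.8% lower, so the carriers' share was near the background. The median log2 fold change was -0.07 over the carriers and -0.06 over all genes. A test for any difference between the 3 pellets called 8 of 39 carriers, against 23.3% of all genes. Every EV 100K library lay above every EV 2.8K library for 8 of the 39 carriers (23.9% of all genes) and below for 9 (20.8% of all genes).

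**Figure D1:**
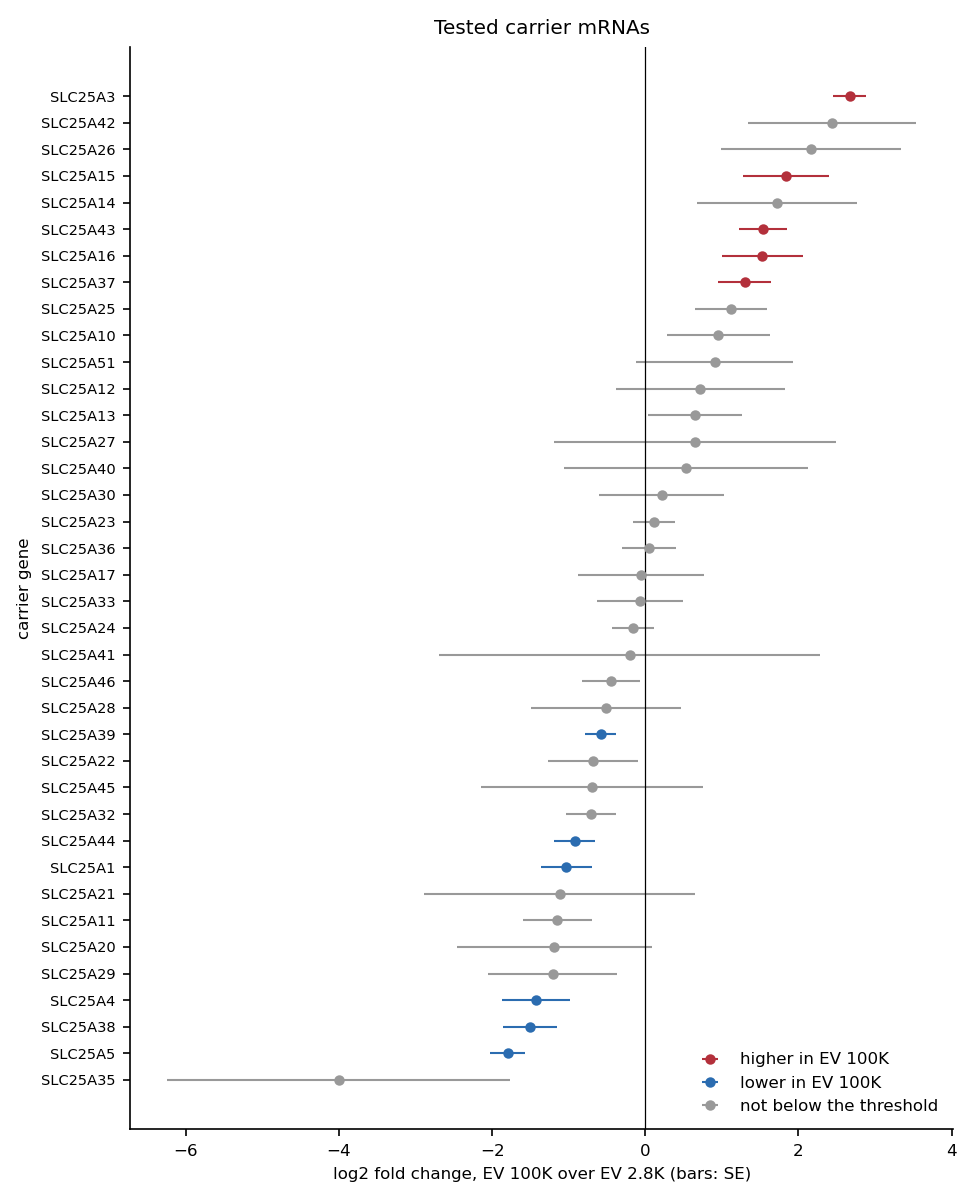
Log2 fold change of EV 100K over EV 2.8K for 38 of the 39 tested carrier mRNAs (points, with SE as bars), ordered by size. The 5 that were higher are red, the 6 that were lower are blue, and SLC25A3 stands at the top with 2.67.

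SLC25A3 had 186, 220 and 203 CPM in EV 2.8K, 745, 587 and 437 CPM in EV 10K, 1377, 1250 and 1302 CPM in EV 100K, and 208 CPM in the cells. The 3 pellets did not overlap, and each faster pellet lay wholly above the slower one. The means were 203 ± 17.4, 590 ± 154 and 1309 ± 64.0 CPM (SD, n = 3 each). EV 100K over EV 2.8K gave 2.67 on the log2 scale (SE 0.21, edgeR adjusted p = 7.52e-08). EV 10K over EV 2.8K gave 1.53 (SE 0.20, edgeR adjusted p = 0.000113), and the step to the fastest pellet was 1.14 (SE 0.20, edgeR adjusted p = 0.00105) for EV 100K over EV 10K. Among all 15525 genes tested between EV 100K and EV 2.8K, SLC25A3 ranked 52 by p and 927 by fold change.

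These SLC25A3 calls held under all 16 alternatives of the processing run for each comparison. Without EV 2.8K library 1 the value for EV 100K over EV 2.8K was 2.61, and with protein-coding genes outside the mitochondrial genome alone it was 2.702. None of the 50-base stretches of its principal transcript, 1678 bases long, occurred in another annotated gene. The exons of all its transcripts together cover 8896 bases, and those outside the principal transcript were not searched. The small nucleolar RNA gene SNORA53, which lies inside SLC25A3, had no count in any library. How reads in overlapping genes were assigned was not given. Its lack of counts therefore cannot show that its reads are absent from the SLC25A3 count.

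**Figure D2:**
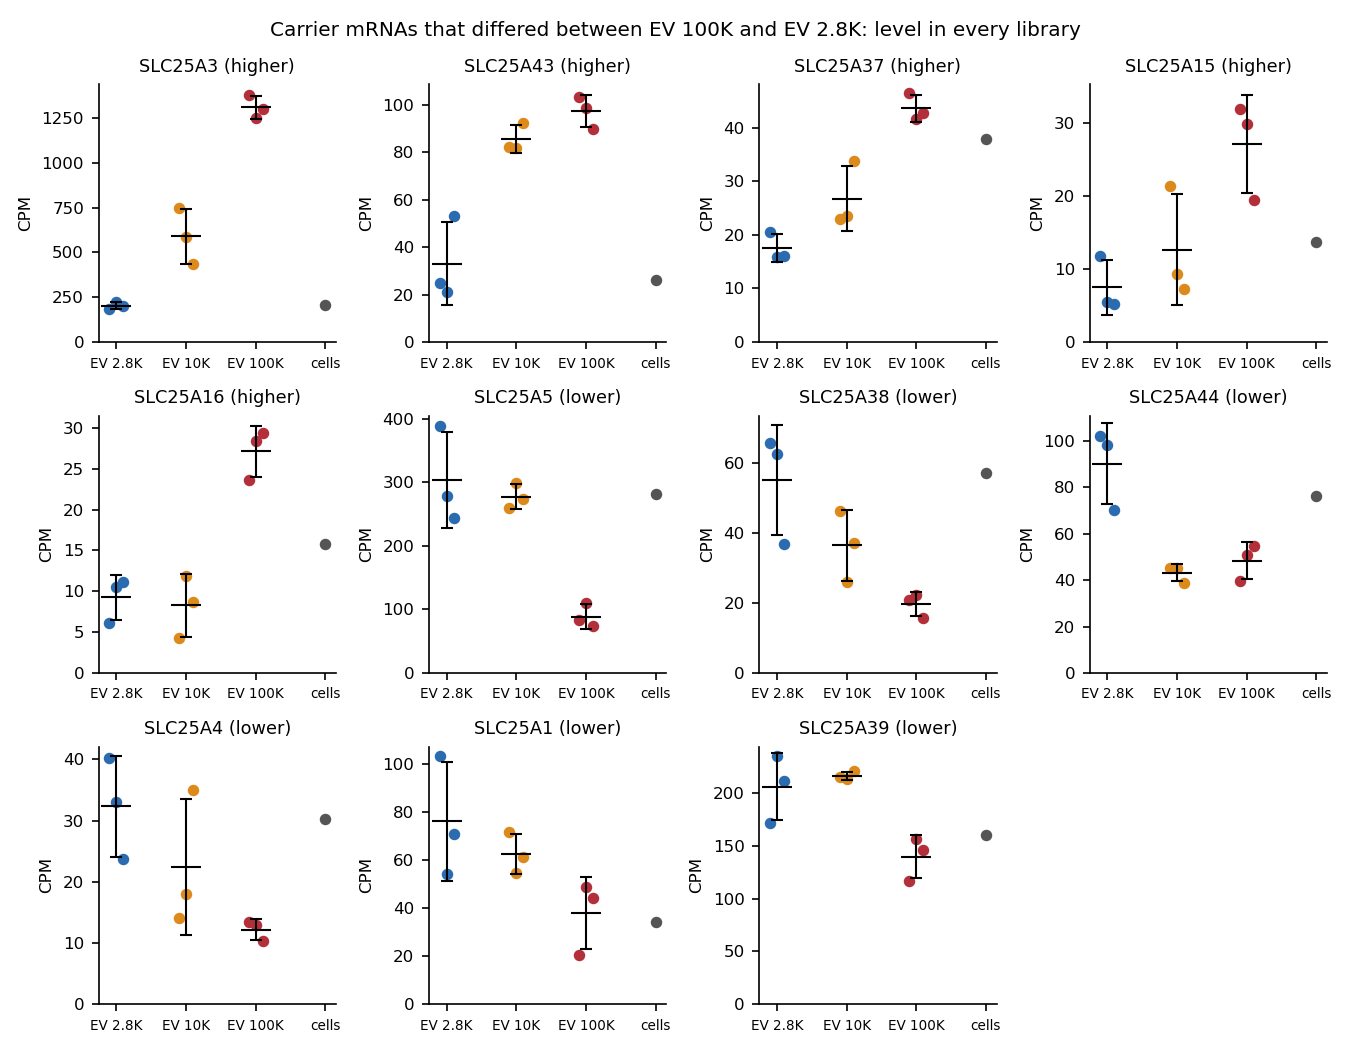
Level (CPM, linear axes from 0) of the 11 carrier mRNAs that differed between EV 100K and EV 2.8K in every library, with the mean and SD of each pellet in black; the cells have 1 library. SLC25A3 reaches 1250 to 1377 CPM in EV 100K, and SLC25A5 drops to 73.1 to 110 CPM there.

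SLC25A5, the translocase typical of proliferating cells, had 389, 278 and 245 CPM in EV 2.8K, 260, 299 and 275 CPM in EV 10K, 82.8, 110 and 73.1 CPM in EV 100K, and 281 CPM in the cells. EV 2.8K, EV 10K and the cells were at similar levels, and all EV 100K libraries lay below every other library. SLC25A5 fell in EV 100K by 1.80 on the log2 scale against EV 2.8K (SE 0.23, edgeR adjusted p = 1.06e-05) and by 1.65 against EV 10K (SE 0.23, edgeR adjusted p = 0.000116). EV 10K over EV 2.8K was -0.14 (SE 0.22, edgeR adjusted p = 0.804). All of the 16 alternatives gave the same calls.

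The reading of SLC25A5 has a limit in its copies. Of its stretches of 50 bases, 18.8% occur in other annotated genes, chiefly the overlapping antisense gene SLC25A5-AS1 and pseudogenes, and whether the counting used the strand is not stated. The 9 SLC25A5 pseudogenes together had at most 3 counts in any EV library and 15 in the cells, and SLC25A5-AS1 had at most 46 counts in any library.

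SLC25A4, the translocase of heart and muscle, had 40.2, 33.1 and 23.6 CPM in EV 2.8K, 14.1, 17.9 and 34.97 CPM in EV 10K, 13.3, 12.9 and 10.3 CPM in EV 100K and 30.3 CPM in the cells. It was lower in EV 100K relative to EV 2.8K, at -1.43 on the log2 scale (SE 0.44, edgeR adjusted p = 0.0232). Without EV 100K library 1, 2 or 3, or EV 2.8K library 1 or 2, the adjusted p was 0.0507 to 0.112. SLC25A31 had counts in 1 EV library alone, at 1.55 CPM, and was not tested.

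SLC25A6 had no count in any library, which was not read as a level. The gene lies in the pseudoautosomal region that X and Y share, and the table lists it on both chromosomes. All 35 X genes that the table lists also on Y, 18 of them protein-coding, had no count in any library.

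SLC25A3 and SLC25A5 can be set against each other within a library, where scaling between libraries plays no part. The SLC25A3 count divided by the SLC25A5 count was 0.477, 0.792 and 0.829 in EV 2.8K, 2.87, 1.97 and 1.59 in EV 10K, 16.6, 11.4 and 17.8 in EV 100K, and 0.741 in the cells. The pellets did not overlap, and the cell value lay within the range of EV 2.8K. Per base of principal transcript the ratio was 0.531 ± 0.147 for EV 2.8K and 1.63 ± 0.498 for EV 10K. It was 11.6 ± 2.61 at the fastest run (SD, n = 3 for each pellet) and 0.563 in the cells. The principal transcripts have 1678 bases for SLC25A3 and 1274 for SLC25A5. The exons of all their transcripts cover 8896 and 1500 bases, so the level of this ratio depends on the length used.

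SLC25A3 made up 13.5 ± 2.08% of all carrier counts in EV 2.8K, 31.4 ± 6.40% in EV 10K, 56.0 ± 2.78% in EV 100K (SD, n = 3 each) and 13.9% in the cells. The SLC25A5 share was 19.9 ± 3.22%, 14.9 ± 1.73% and 3.79 ± 0.828% in the same pellets, and 18.8% in the cells. The summed level of the 48 carriers was 1515 ± 128 CPM in EV 2.8K, 1867 ± 114 CPM in EV 10K, 2339 ± 6.08 CPM in EV 100K and 1495 CPM in the cells. Without SLC25A3, SLC25A5 and SLC25A6 it was 1008 ± 69.8, 999.6 ± 63.7 and 941 ± 57.1 CPM in the same pellets and 1006 CPM in the cells, so these group means differed by less than the SD of EV 2.8K.

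**Figure D3:**
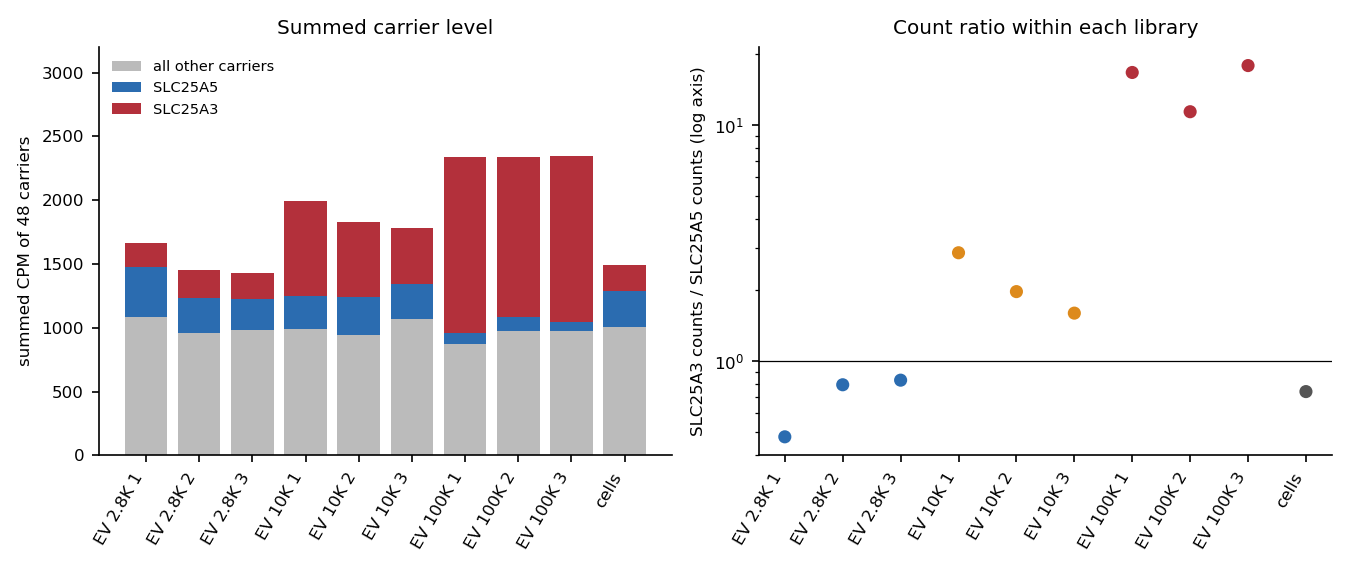
Left, summed level (CPM) of the 48 carriers in each library, split into SLC25A3, SLC25A5 and all others; right, the SLC25A3 count over the SLC25A5 count in each library on a log axis, with a line at 1. The sum is 2335 to 2346 CPM in EV 100K and 1428 to 1662 CPM in EV 2.8K, and the ratio is 11.4 to 17.8 in EV 100K.

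SLC25A43 was higher in the faster pellets. It was listed with the adenine nucleotide and phosphate carriers, though its substrate is not established. It had 24.7, 21.2 and 53.02 CPM in EV 2.8K, 82.2, 81.9 and 92.6 CPM in EV 10K, 103, 98.8 and 90.0 CPM in EV 100K, and 26.1 CPM in the cells. EV 2.8K did not overlap with the other pellets. EV 100K stood 1.54 above EV 2.8K on the log2 scale (SE 0.31, edgeR adjusted p = 0.00112) and EV 10K 1.36 above it (SE 0.31, edgeR adjusted p = 0.0117), and both calls held in all 16 alternatives. EV 100K over EV 10K was 0.18 (SE 0.30, edgeR adjusted p = 0.838). SLC25A43 lies at chrX:119399060-119454478 on the plus strand, upstream of SLC25A5 on the same chromosome.

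The class listed as adenine nucleotide and phosphate carriers has 13 members, of which 10 were tested. It includes SLC25A43 and a coenzyme A carrier, so its counts do not describe a single type of substrate. Between EV 100K and EV 2.8K, 2 of the 10 were higher (12% of all genes), 2 were lower (13.8% of all genes) and 6 did not pass. The calcium-regulated ATP-Mg/phosphate carriers did not pass in any pellet comparison of the 9 EV libraries. SLC25A25, one of them and named after its values were seen, had 34.4, 28.8 and 41.7 CPM in EV 100K and 28.8, 8.02 and 10.8 CPM in EV 2.8K, where library 1 reached the EV 100K range. The difference on the log2 scale was 1.12 (SE 0.47, adjusted p = 0.0924 in edgeR), and without EV 2.8K library 1 it was 1.87 and passed at 0.00239. In EV 10K it had 16.8, 14.9 and 17.96 CPM, and EV 100K over EV 10K passed, among the alternatives run, only at 0.0245 with the 6 libraries compared alone (1.07 in the main test, edgeR adjusted p = 0.178). An antisense gene shares part of its sequence, so its count is uncertain. The coenzyme A carrier SLC25A42, also named after its values were seen, did not pass for EV 100K over EV 2.8K (2.44 on the log2 scale, edgeR adjusted p = 0.117) but passed at 0.0211 without EV 2.8K library 2, with a log2 fold change of 4.26, and at 0.0443 with DESeq2. The calcium-regulated carrier SLC25A24 had 50.1, 46.4 and 66.2 CPM in EV 2.8K, 63.8, 49.9 and 69.3 CPM in EV 10K, 56.9, 44.6 and 46.7 CPM in EV 100K and 68.4 CPM in the cells. All pellets overlapped, and its log2 fold change was -0.16 for EV 100K over EV 2.8K, with a 95% interval of -0.69 to 0.38 (edgeR adjusted p = 0.762).

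Of the 13 carriers of amino acids and acylcarnitines, 9 were tested. In EV 100K relative to EV 2.8K, 1 was higher (12% of all genes) and 2 were lower (13.8% of all genes). SLC25A38, which brings in glycine for haem synthesis, had 65.6, 62.5 and 36.9 CPM in EV 2.8K, 46.2, 26.01 and 37.2 CPM in EV 10K, 20.9, 22.2 and 15.7 CPM in EV 100K, and 57.1 CPM in the cells. All EV 100K libraries lay below all others. EV 100K over EV 2.8K was -1.51 on the log2 scale (SE 0.35, edgeR adjusted p = 0.00361), a call that held in all 16 alternatives.

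SLC25A44, a carrier of branched-chain amino acids, had 102, 98.2 and 70.2 CPM in EV 2.8K, 45.4, 45.2 and 38.96 CPM in EV 10K, 39.5, 50.9 and 54.7 CPM in EV 100K, and 76.4 CPM in the cells. EV 2.8K lay above both other pellets. On the log2 scale the difference was -0.92 (SE 0.26, edgeR adjusted p = 0.0149) for EV 100K over EV 2.8K and -1.08 (SE 0.26, edgeR adjusted p = 0.0194) for EV 10K over EV 2.8K. The first call was lost without EV 100K library 1 or 2 or EV 2.8K library 2, with adjusted p of 0.052 to 0.108. The second was lost without EV 10K library 1, 2 or 3 or EV 2.8K library 2, with adjusted p of 0.0552 to 0.097, and was 0.0567 with the 6 libraries compared alone.

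SLC25A15, the ornithine exchanger of the urea cycle, had 11.8, 5.505 and 5.14 CPM in EV 2.8K, 21.3, 9.34 and 7.22 CPM in EV 10K, 31.9, 29.9 and 19.4 CPM in EV 100K, and 13.7 CPM in the cells. EV 100K lay above EV 2.8K in every library and overlapped with EV 10K. Its rise over EV 2.8K was 1.84 on the log2 scale (SE 0.57, edgeR adjusted p = 0.0221). Without EV 100K library 1 or 2 or EV 2.8K library 2 or 3 the adjusted p was 0.059 to 0.113.

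The aspartate-glutamate carriers SLC25A12 and SLC25A13, which serve the malate-aspartate shuttle, and the carnitine-acylcarnitine carrier SLC25A20 did not pass in any pellet comparison. SLC25A12 had 12.4, 6.24 and 11.7 CPM in EV 100K and 0, 6.88 and 11.2 CPM in EV 2.8K, so the groups overlapped. SLC25A13 had 23.7, 21.5 and 23.3 CPM in EV 100K and 3.596, 21.9 and 17.4 CPM in EV 2.8K. SLC25A20 had 3.37, 3.67 and 2.89 CPM in EV 100K and 0, 6.64 and 15.6 CPM in EV 2.8K. For each of these, EV 2.8K library 1 was the lowest of its pellet.

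Of the 12 carriers of cofactors, nucleotides and metals, 11 were tested. In EV 100K relative to EV 2.8K, 2 were higher (12% of all genes) and 1 was lower (13.8% of all genes). SLC25A37, or mitoferrin 1, which imports iron, had 20.6, 15.9 and 16.1 CPM in EV 2.8K, 23.02, 23.5 and 33.8 CPM in EV 10K, 46.5, 41.7 and 42.8 CPM in EV 100K, and 37.9 CPM in the cells. The 3 pellets did not overlap. The log2 fold change for EV 100K over EV 2.8K was 1.30 (SE 0.35, edgeR adjusted p = 0.00967), and without EV 100K library 1 the adjusted p was 0.0587.

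SLC25A16, linked to the import of coenzyme A, had 6.12, 10.5 and 11.1 CPM in EV 2.8K, 4.25, 11.9 and 8.74 CPM in EV 10K, 23.6, 28.5 and 29.3 CPM in EV 100K, and 15.8 CPM in the cells. All EV 100K libraries lay above all others. On the log2 scale EV 100K was higher by 1.53 than EV 2.8K (SE 0.53, edgeR adjusted p = 0.0422) and by 1.70 than EV 10K (SE 0.54, edgeR adjusted p = 0.0498). The first was lost without any 1 of the EV 100K libraries or EV 2.8K library 1 or 2 (adjusted p 0.0567 to 0.168), and the second without any 1 of the EV 100K or EV 10K libraries (0.058 to 0.214). Both were also lost with no filter on low counts and with all 10 libraries in the fit, with adjusted p of 0.068 to 0.0912.

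SLC25A39, which imports glutathione, was abundant in all groups, with 172, 235 and 212 CPM in EV 2.8K, 215, 213 and 221 CPM in EV 10K, 117, 156 and 146 CPM in EV 100K, and 161 CPM in the cells. EV 100K lay below the other pellets. Its log2 difference was -0.58 (SE 0.20, edgeR adjusted p = 0.0409) from EV 2.8K and -0.64 (SE 0.20, edgeR adjusted p = 0.0499) from EV 10K. The first was lost in 12 of 16 alternatives (adjusted p 0.0538 to 0.221), including without any 1 of the EV 100K or EV 10K libraries or EV 2.8K library 2 or 3. The second was lost in 10 of 16 (0.0565 to 0.282), including without any 1 of the EV 100K or EV 10K libraries or EV 2.8K library 2. The pyrimidine nucleotide carrier SLC25A36 did not pass, with 35.7, 38.4 and 30.8 CPM in EV 100K and 25.2, 46.3 and 28.6 CPM in EV 2.8K.

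Of the 6 carriers of keto acids, di- and tricarboxylates, 5 were tested. In EV 100K relative to EV 2.8K, 1 was lower (13.8% of all genes). This was SLC25A1, which exports citrate for fatty acid synthesis. It had 103, 54.2 and 70.9 CPM in EV 2.8K, 71.4, 54.7 and 61.0 CPM in EV 10K, 20.5, 48.6 and 44.3 CPM in EV 100K, and 34.3 CPM in the cells. EV 100K lay below the other pellets in every library, and its library 1 was the lowest. The log2 fold change for EV 100K over EV 2.8K was -1.03 (SE 0.34, edgeR adjusted p = 0.0296). It was lost without EV 100K library 1, EV 10K library 2 or 3, or EV 2.8K library 1 or 3 (adjusted p 0.0505 to 0.172), and was 0.0767 with the 6 libraries compared alone.

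The oxoglutarate-malate carrier SLC25A11 had 12.8, 15.2 and 16.4 CPM in EV 100K and 38.9, 16.04 and 42.1 CPM in EV 2.8K, which overlapped. The difference was -1.15 on the log2 scale (SE 0.45, edgeR adjusted p = 0.0707), and it passed at 0.0262 without EV 2.8K library 2. The 3 members that resemble uncoupling proteins and SLC25A46, which sits in the outer membrane, did not pass in any pellet comparison of the 9 EV libraries. The uncoupling-like SLC25A14, named after its values were seen, had 21.9, 11.7 and 13.6 CPM in EV 100K and 0, 11.8 and 2.23 CPM in EV 2.8K. The difference on the log2 scale was 1.72 (SE 1.05, adjusted p = 0.27 in edgeR), and without EV 2.8K library 2 it was 3.86 and passed at 0.0204.

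Between EV 10K and EV 2.8K, 3 of the 39 carriers differed, against 6.38% of all genes. SLC25A3 and SLC25A43 were higher (4.15% of all genes were higher) and SLC25A44 was lower (2.22% were lower). Between EV 100K and EV 10K, 4 of the 39 differed, against 10.9% of all genes. SLC25A3 and SLC25A16 were higher (3.70% of all genes were higher), and SLC25A5 and SLC25A39 were lower (7.23% were lower). The groups did not overlap in 7 carriers between EV 10K and EV 2.8K, with 4 higher (11.7% of all genes) and 3 lower (9.7%). Between EV 100K and EV 10K they did not overlap in 6 carriers that were higher (19.2% of all genes) and 6 that were lower (16.7%). These comparisons share libraries with each other and with EV 100K over EV 2.8K.

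**Figure D4:**
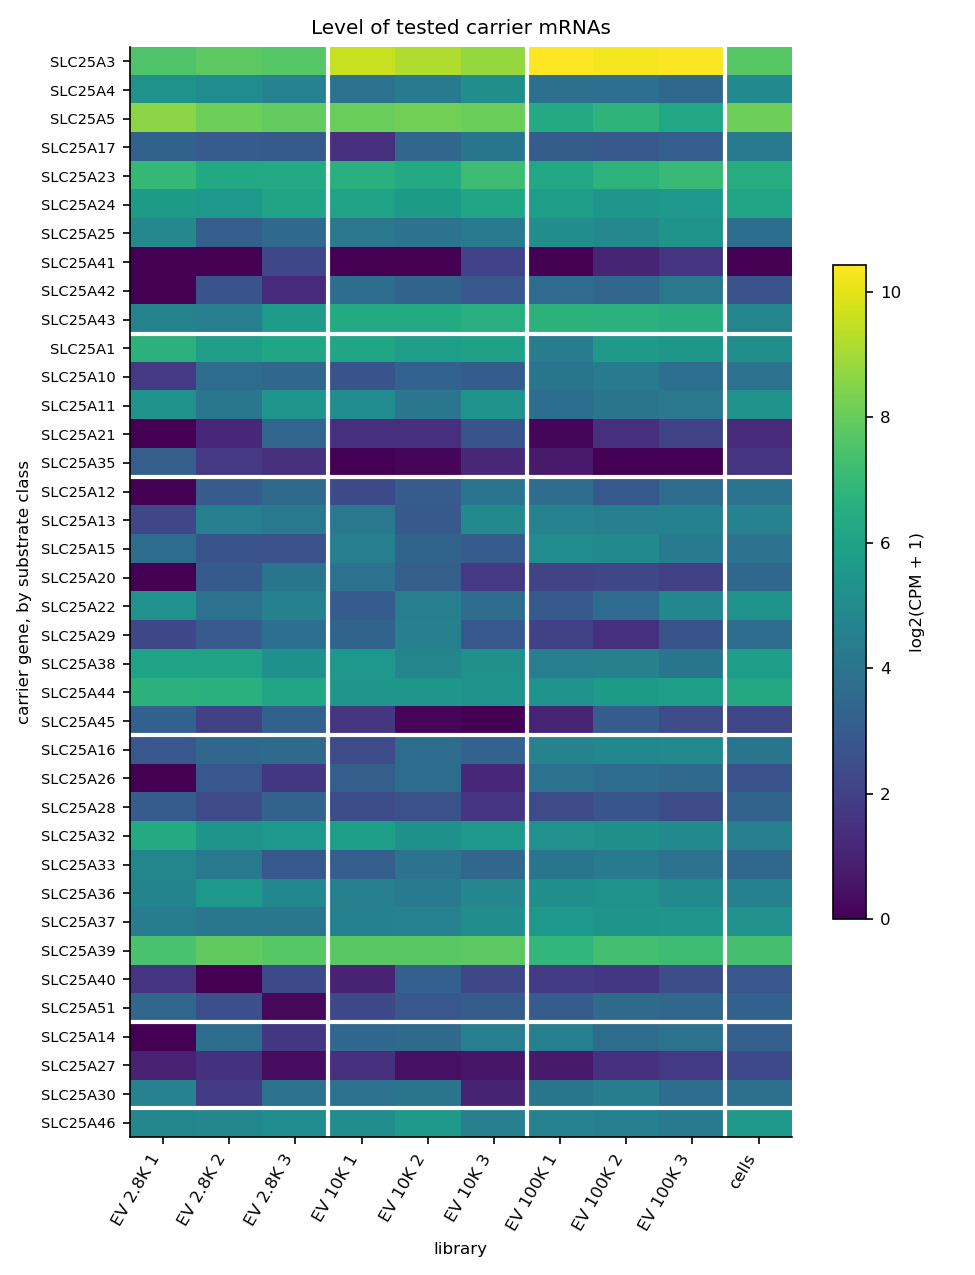
Level of 38 of the 39 tested carrier mRNAs as log2(CPM + 1) in each library, with white lines between the pellets and between the substrate classes: adenine nucleotide and phosphate, keto acid, amino acid, cofactor and metal, uncoupling-protein-like, and the outer membrane member. The brightest cells are SLC25A3 in the 3 EV 100K libraries, and EV 2.8K library 1 has no count for 7 carriers.

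The spread within a pellet was widest in EV 2.8K. Over the 39 tested carriers the median SD of log2(CPM + 1) was 0.67 for EV 2.8K, 0.52 for EV 10K and, at the fastest run, 0.26. Over all genes tested it was 0.61, 0.49 and 0.30. Across the 39 carriers, the Spearman correlation of the EV 100K over EV 2.8K log2 fold change with transcript length was 0.20, against 0.24 over 12009 protein-coding genes. With GC content it was -0.21, against -0.19. With exon number it was 0.335, against -0.002, and with coding length it was 0.30, against 0.08. These points share the same 6 libraries.

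Against the whole cells, 41 carriers were tested in a fit of all 10 libraries, in which the single cell library was assumed to vary like the EV libraries. For the mean of the pellets over the cells, 1 of 41 carriers was higher and 0 were lower (0 also in every alternative run, DESeq2 among them), against 4.43% of all 22370 genes tested, 2.55% higher and 1.88% lower. By unadjusted edgeR p below 0.05, 5 of the 41 carriers differed. The share of all genes at that threshold was not computed, so this count was not read against a background. The carrier that was higher was SLC25A3, at 1.37 on the log2 scale (SE 0.31, edgeR adjusted p = 0.000594), held in all 14 alternatives. Its mean level was 0.97-fold that of the cells for EV 2.8K, 2.83-fold for EV 10K and, at the fastest run, 6.28-fold. The median log2 fold change over the cells was -0.38 for the carriers and -0.16 for all genes.

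SLC25A43, named here after its values were seen, stood 1.32 above the cells on the log2 scale (SE 0.43, edgeR adjusted p = 0.0514). It passed with median-ratio (RLE) size factors in edgeR (adjusted p = 0.0265), with DESeq2 (adjusted p = 0.0145) and without EV 2.8K library 1 or 2 (edgeR adjusted p = 0.00439 and 0.0234). SLC25A5 over the cells was -0.52 (SE 0.29, edgeR adjusted p = 0.458), with pellet means of 1.08-fold, 0.99-fold and 0.32-fold the cell level for EV 2.8K, EV 10K and, at the fastest run, EV 100K.

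All 9 EV libraries lay below the cells for 5 of the 39 carriers, against 12.7% of all genes. They included the peroxisomal carrier SLC25A17, the glutamate carrier SLC25A22, SLC25A27 and mitoferrin 2, SLC25A28, named after their values were seen. SLC25A22 had 37.3, 13.9 and 22.9 CPM in EV 2.8K, 7.26, 20.96 and 12.4 CPM in EV 10K, 6.74, 11.6 and 28.5 CPM in EV 100K and 40.2 CPM in the cells, with an edgeR adjusted p of 0.349. All 9 lay above the cells for 1 carrier, against 6.97% of all genes. This was SLC25A32, which carries folate and was named after its values were seen, but 97.5% of its stretches of 50 bases are shared with other genes, chiefly an overlapping one, so its count is uncertain. The same holds for SLC25A10, the dicarboxylate carrier, which is outside the rule for named carriers, with 63.9%. For both genes, the other entry that shares most of these stretches had no count in any library. How shared reads were assigned was not given.

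Carrier proteins reach the inner membrane through the TOM pore, small TIM chaperones and the TIM22 complex. All 13 mRNAs of this carrier import list were tested. Between EV 100K and EV 2.8K, 3 were higher (12% of all genes) and 2 were lower (13.8% of all genes). The receptor TOMM20 averaged 197 ± 31.3 CPM in EV 100K and 54.3 ± 9.46 CPM in EV 2.8K (SD, n = 3 each), a log2 fold change of 1.84 (edgeR adjusted p = 1.17e-05). The chaperones TIMM10 and TIMM10B were higher by 1.81 and 1.62 on the log2 scale, and the pore TOMM40 and TIMM8B fell by 1.42 and 1.18. Mean levels of TIMM10 were 135 CPM in EV 100K and 37.8 CPM in EV 2.8K.

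Of 18 tested mRNAs of other inner membrane transport, 1 was higher (the sideroflexin SFXN4) and 5 were lower in EV 100K relative to EV 2.8K. Of all genes tested, 12% were higher and 13.8% lower in this comparison. The inner membrane mRNAs that were lower included the calcium uptake regulator MICU2, the pyruvate carrier subunit MPC2, SFXN3 and LETM1. Of the 3 outer membrane channels, VDAC2 was lower, with 65.7 ± 2.53 CPM in EV 100K and 200.4 ± 4.31 CPM in EV 2.8K (SD, n = 3 each; log2 fold change -1.63, edgeR adjusted p = 7.66e-06). VDAC1 and VDAC3 did not pass.

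Set beside other mitochondrial mRNAs, the carriers' median of -0.07 for EV 100K over EV 2.8K compares with -0.73 over 77 tested mitochondrial ribosomal protein mRNAs and -0.82 over 82 tested nuclear-encoded respiratory chain mRNAs. Among the ribosomal protein mRNAs 7 were higher and 24 lower, and among the respiratory chain mRNAs 12 were higher and 36 lower. Over all genes tested, 12% were higher and 13.8% lower. All 13 mRNAs of the mitochondrial genome were lower, with a median of -9.98. The difference between these lists and the carriers was not tested.

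The 9 members that were not tested between the pellets were SLC25A2, SLC25A6, SLC25A18, SLC25A31, SLC25A34, SLC25A47, SLC25A48, SLC25A52 and SLC25A53. SLC25A48 had no count in any library, which allows up to 3 counts per library by counting error alone. SLC25A6 also had no count, and no limit was set for it. The other 7 reached at most 1.97 CPM in any library. The number of carriers with a count was 34, 37 and 39 in EV 2.8K, 38, 39 and 38 in EV 10K, 41, 39 and 40 in EV 100K and 42 in the cells. These libraries differed in depth. With each thinned at random to 5424964 counts, the number was 40 in the cells and 38 in EV 10K library 2, and unchanged elsewhere.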

How the data were processed

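The deposited values are whole-number counts per gene for 10 libraries, not normalized by the authors. Per the submitters' processing notes, bcl2fastq 2.19.1.403, cutadapt 2.7, STAR 2.6.1d, featureCounts 1.6.3 and the build GRCh38 were used. Whether the counting used the strand, and what it did with multiply mapped reads, was not given by any source used. Per the labels' protocols, Trizol was used for extraction and a stranded SMARTer total RNA kit for the libraries. Symbols, coordinates and transcript sequences came from GENCODE release 29 by gene identifier. Groups and set numbers came from the sample titles.

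Tests used edgeR 4.0.16 in R 4.3.3 on the whole table: TMM scaling, filterByExpr with a minimum count of 10, the robust quasi-likelihood F-test, and Benjamini-Hochberg adjustment across every gene tested (threshold 0.05). The pellets were compared on the 9 EV libraries (15525 genes; degrees of freedom 6 residual and 11.7 prior) and the mean of the pellets with the cells on all 10 (22370 genes, prior estimated as infinite). CPM are counts per 1000000 scaled by TMM over all 10 libraries. The spread was set by pellet replicates, with a single estimate per gene shared by all libraries of a fit. Computed for each pellet alone, the common biological coefficient of variation was 0.94 for EV 2.8K, 0.739 for EV 10K and, at the fastest run, 0.273. The main tests thus took the spread as equal between pellets, which these values are not. Intervals are at the 95% level.

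The set number was not a term in the main fit. Shared stretches were counted as 50-base windows of a member's principal transcript that occur in a transcript of another gene. Alternatives were DESeq2 1.42.0, RLE size factors, no filter on low counts, other sets of libraries or genes, a block for the set number, and leaving out each EV library. The scripts were tested on simulated data. The members, gene lists and tests were chosen with earlier results of these data known. Named carriers are a set given by name (among them SLC25A3 to SLC25A6, SLC25A12, SLC25A24 and SLC25A39) and, for each comparison, up to 8 higher and 8 lower members with the smallest adjusted p below the threshold, and exceptions are marked. Values of a few genes are not reported here.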

Additional observations from a re-analysis of the deposited data

How the results depend on the processing

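The 56 log2 fold changes of named carriers were recomputed in 872 alternatives. In 810 the call was the same, in 61 it was lost, in 1 it was gained, and none changed the direction of a called value. Most of the 56 did not pass in the main test, and staying so counted as the same call. All 61 losses therefore fell on values that passed in the main test. Among the pellet comparisons, 3 values passed for EV 10K over EV 2.8K and 11 for EV 100K over EV 2.8K. For EV 100K over EV 10K, 4 passed. With 1 EV library left out, the carriers differing between the pellets numbered 4 to 10. Those higher and lower were 2 to 5 and 2 to 5 for EV 100K over EV 2.8K, 2 to 2 and 0 to 1 for EV 10K over EV 2.8K, 1 to 2 and 1 to 2 for EV 100K over EV 10K, and 1 to 2 and 0 to 0 for the pellets over the cells. All genes called numbered 2807 to 4137, 557 to 1173, 979 to 2548 and 825 to 1529 in the same comparisons, and 2478 to 4111 in the test over all pellets. The carriers' share of counts, main values 0.157% for EV 2.8K, 0.179% for EV 10K and, at the fastest run, 0.220%, ranged over 0.154 to 0.162, 0.177 to 0.183 and 0.213 to 0.228%. As a share of nuclear protein-coding counts it was 0.183, 0.205 and 0.256%, a smaller denominator by construction. Without SLC25A3, SLC25A5 and SLC25A6 the share of all counts was 0.105, 0.0962 and 0.0888%, by the genes left out.

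With the 6 libraries compared alone, 561 genes were called for EV 10K over EV 2.8K (990 in the main test, 1635 with DESeq2), with 0 carriers lower (SLC25A44 had an edgeR adjusted p of 0.0567), and 2777 for EV 100K over EV 10K (1697 in the main test). For EV 100K over EV 10K, 1 carrier was higher and 1 lower with all 10 libraries or with no filter, and 1 was lower with RLE size factors. Over the cells, 2 carriers were higher with DESeq2, RLE or the replicate block, the second being SLC25A43. RLE moved the median of all genes over the cells to -0.04 (main -0.16). Of all genes over the cells, 571 were higher and 420 lower in the main test, 663 and 302 with RLE, and 890 and 256 with DESeq2. The cause of these moves was not tested.

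Same-numbered libraries had correlations of their deviations from -0.009 to 0.048, mostly positive. Others ranged from -0.036 to 0.030 and were mostly negative. All were small, and they do not settle whether the numbers are pairs, so the set number was used only in an alternative block. With the replicate block, 5 carriers were higher and 6 lower for EV 100K over EV 2.8K (3964 genes called, 4013 without it). For SLC25A12, a carrier with low counts, the 95% interval of EV 100K over EV 2.8K was -1.45 to 2.88 on the log2 scale, and differences inside it were not excluded.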
